A study of Mus musculus with 9 samples.

Results

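The annexin genes were described by their Sox2 binding in mouse lung epithelial cells. Annexins are proteins that bind phospholipid membranes in the presence of calcium through a conserved repeated core, and they act in membrane repair, vesicle traffic and the control of inflammation. Annexin A1 is induced by glucocorticoids and limits inflammation through formyl peptide receptors, and it is abundant in squamous epithelium, where it is a substrate for the cornified envelope. Sox2 is a foregut transcription factor found in the oesophagus and conducting airways, and Nkx2-1 is required for cells to keep a lung fate. Of 12 annexin genes in the RefSeq annotation, and of 21896 protein-coding genes in all, 9 members were examined, namely Anxa1, Anxa2, Anxa3, Anxa4, Anxa5, Anxa6, Anxa7, Anxa9 and Anxa11. They were taken as a named list, and a binding summit was assigned to a member when it lay inside the gene's mm10 span or within 50 kb of it. The list was drawn up, and selected on, with the summit positions and values near annexin genes in these same 3 peak lists known, so the counts below describe it and do not test it.

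Sox2 chromatin immunoprecipitation and sequencing (ChIP-seq) had been done on cells that express ectopic Sox2 and lack Nkx2-1 through its deletion, on cells that express ectopic Sox2 alone, and on wildtype cells. All were lung epithelial cells of the C57BL/6 strain at 8 weeks of age. The series holds 9 libraries, 1 each of Sox2 ChIP, IgG and input per condition, and the 3 Sox2 ChIP libraries were analysed here. The labels do not give the driver of ectopic Sox2, the way Nkx2-1 was deleted or the number of animals. With 1 library per condition there are no replicates, and conditions were compared without a p-value. Below, "with Nkx2-1 deletion" names the library with both ectopic Sox2 and Nkx2-1 deletion. Against wildtype it differs in both, and these cannot be told apart. A peak list holds no expression level, so the labels alone give the cell type and the genotype.

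The list with Nkx2-1 deletion held 2589 summits, the ectopic Sox2 list 229 and the wildtype list 552. The ChIP depth, as mean fragments per position recovered from the authors' fold and p-values, was 1.45 with Nkx2-1 deletion, 0.764 with ectopic Sox2 alone and 0.963 in wildtype. The median summit held 38 fragments with Nkx2-1 deletion, 23 with ectopic Sox2 alone and 24 in wildtype. Intervals on fragments are exact Poisson 95% intervals and cover counting error only.

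With Nkx2-1 deletion, Sox2 summits lay at Anxa1, Anxa3 and Anxa6, which is 3 of 9 members against 13.1% of all protein-coding genes. In the ectopic Sox2 list no member had a summit, 0 of 9 against 1.53% of all genes. In wildtype, Anxa1 alone had summits, 1 of 9 against 2.85% of all genes. The members held 8 summits with Nkx2-1 deletion, 0 with ectopic Sox2 alone and 2 in wildtype, and both wildtype regions at Anxa1 overlapped a region of the Nkx2-1 deletion list. Anxa2, Anxa4, Anxa5, Anxa7, Anxa9 and Anxa11 had no summit within 50 kb in any library.

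**Figure D1:**
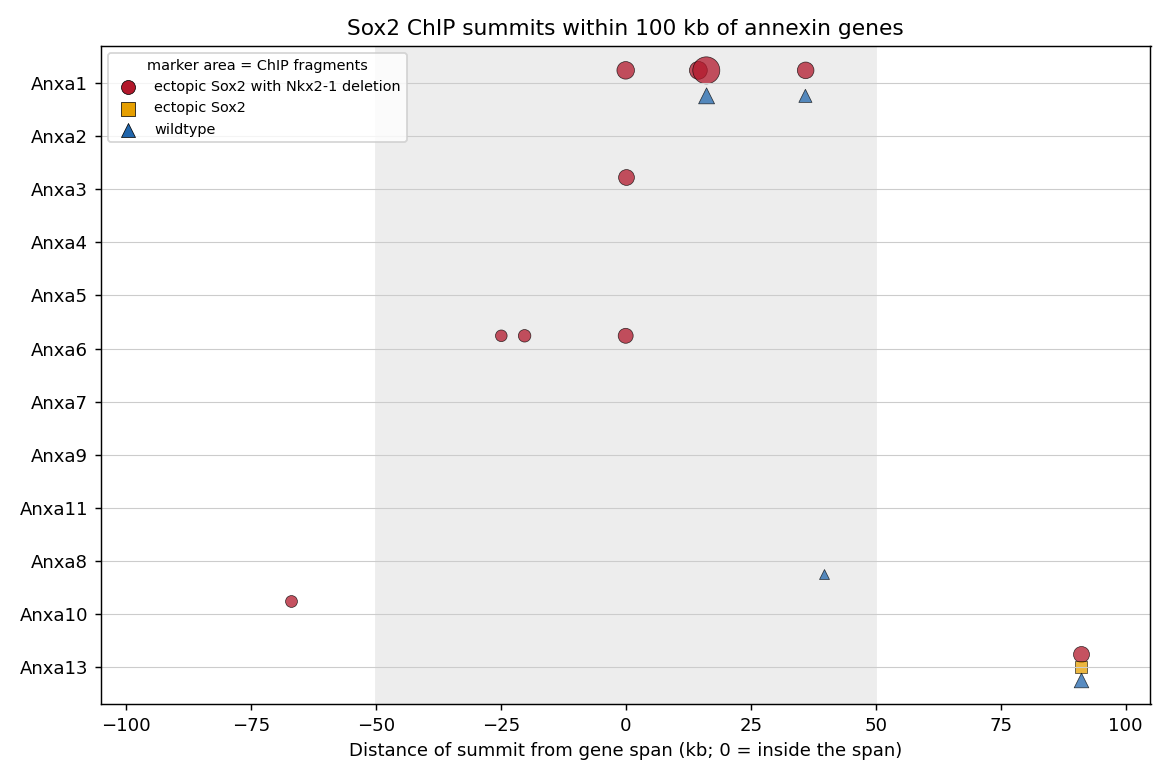
Each row is an annexin gene (the 9 members, then Anxa8, Anxa10 and Anxa13), the horizontal axis is the distance of a summit from the gene span in kb, and marker area is the number of ChIP fragments; shading marks the 50 kb window. Anxa1 carries 4 summits with Nkx2-1 deletion and 2 in wildtype, and the ectopic Sox2 list appears only at Anxa13, 91.2 kb away.

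The transcription start windows of these genes, 250 bases before to 50 bases after a start, were read from the RefSeq table of GRCm38.p6, the same build as mm10. They matched 7 of 9 members in 12 windows together with Anxa8 and Anxa10, and no listed region of any library touched one of these windows. Anxa3, Anxa6 and Anxa13 were not matched. The window of Anxa1 (chr19:20390622-20390921, minus strand) is shown because this gene had the most summits, and that of Anxa11 (chr14:25841905-25842204, plus strand) because it was the only window with the letters of the Sox core motif. Capitals mark matches, on either strand, to the 8 motifs searched.
Anxa1: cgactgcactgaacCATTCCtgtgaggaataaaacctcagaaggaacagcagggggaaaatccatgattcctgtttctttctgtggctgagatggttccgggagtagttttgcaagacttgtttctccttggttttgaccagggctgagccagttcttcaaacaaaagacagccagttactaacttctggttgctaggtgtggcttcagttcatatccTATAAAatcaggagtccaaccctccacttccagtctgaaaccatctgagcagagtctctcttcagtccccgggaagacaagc
Anxa11: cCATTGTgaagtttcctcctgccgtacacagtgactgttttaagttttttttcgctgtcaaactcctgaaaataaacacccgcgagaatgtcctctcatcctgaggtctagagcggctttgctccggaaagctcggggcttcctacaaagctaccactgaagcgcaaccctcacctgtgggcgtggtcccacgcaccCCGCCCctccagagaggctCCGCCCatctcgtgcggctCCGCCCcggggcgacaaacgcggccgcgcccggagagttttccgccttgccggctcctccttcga

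The Anxa1 window held TATAAA, the TATA box letters, 32 bases before the start, and CATTCC, the reverse complement of the TEAD motif GGAATG, 236 bases before it. It had no match to the Sox core CATTGT, the AP-1 motif TGANTCA, the Nkx2-1 motif CACTTG, the Fox motif TGTTTAC, the Oct motif ATGCAAAT or the GC box GGGCGG. It held 3 CpG dinucleotides, against a median of 7 over 32851 windows of all genes, 31.4% of which had as few. The Anxa11 window held CATTGT 249 bases before the start, 3 GC boxes and 25 CpG dinucleotides, and the nearest summit to Anxa11 lay 2250 kb away with Nkx2-1 deletion, 2680 kb away with ectopic Sox2 and 699 kb away in wildtype. Over all windows, CATTGT was present in 12.6%, TGANTCA in 7.81%, GGAATG in 14.7%, CACTTG in 13.6%, TGTTTAC in 3.65%, ATGCAAAT in 1.74%, GGGCGG in 35.7% and TATAAA in 13.6%. Matched letters describe the sequence and are not binding sites. No summit sequence is shown, because no genome sequence was used here.

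Anxa1 (gene ID 16952) spans 20373434 to 20390671 on chromosome 19, on the minus strand. With Nkx2-1 deletion it had 1 summit inside the span, 4.28 kb downstream of the start, and 3 upstream of the start at 14.5, 16.1 and 36.0 kb. No other protein-coding gene lay within 50 kb of any of these summits. A count of 4 or more summits within 50 kb was found for 43 of the 2872 genes that had any summit in that list, 8 of the 43 on chromosome 19.

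The summit at 16.1 kb was the leading annexin summit. It lay in the region at chromosome 19, 20406566 to 20407000, where the library with Nkx2-1 deletion had 140 fragments (interval 118 to 165), rank 2 of the 2589 summits. It ranked 5 by −log10 q (32.5) and 211 by fold enrichment (9.13), a value that is divided by the local control background. In wildtype the overlapping region, 20406760 to 20406974, had 49 fragments (36.3 to 64.8) with a fold of 5.65 and ranked 40 of 552 by −log10 q (12.1). The 2 summits were 55 bp apart. Divided by the depth ratio of 1.51, the ratio of fragments with Nkx2-1 deletion over wildtype was 1.90, with an exact conditional binomial 95% interval of 1.36 to 2.68. The libraries differ in ectopic Sox2 as well as in Nkx2-1 deletion. Over the 273 summits of the Nkx2-1 deletion list that overlapped a wildtype region, the median ratio was 1.33 (quartiles 1.09 and 1.68), and the Anxa1 ratio stood at percentile 83.9 of them. The region was singled out as the annexin region with the largest −log10 q with Nkx2-1 deletion, a choice that tends to raise its ratio.

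The region 36.0 kb upstream, at 20426559 to 20426881, held 53 fragments (39.7 to 69.3) with Nkx2-1 deletion. The overlapping wildtype region, at 20426488 to 20426740, held 33 fragments (22.7 to 46.3), with a summit 49 bp away. The depth-scaled ratio was 1.07 (0.677 to 1.70), an interval that includes both 1 and the median of shared regions, and it stood at percentile 23.4 of the shared regions. This was the weakest of the 8 annexin summits with Nkx2-1 deletion by −log10 q, at 3.27, percentile 17.7 of that list. Its wildtype counterpart had a −log10 q of 5.12, percentile 41.8 of the wildtype list. These values hold within each list and do not compare the 2 libraries.

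The remaining Anxa1 summits were listed only with Nkx2-1 deletion. The intragenic one, at 20386207 to 20386539, had 59 fragments (44.9 to 76.1), a fold of 5.20 and a −log10 q of 7.44. The one at 20405070 to 20405348 lay 1.59 kb from the leading summit and had 61 fragments (46.7 to 78.4), a fold of 4.47 and a −log10 q of 6.31. By fragments all 4 Anxa1 summits stood at percentile 79.0 or higher of their list, and by fold 3 of them stood at percentile 37.5 or lower.

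**Figure D2:**
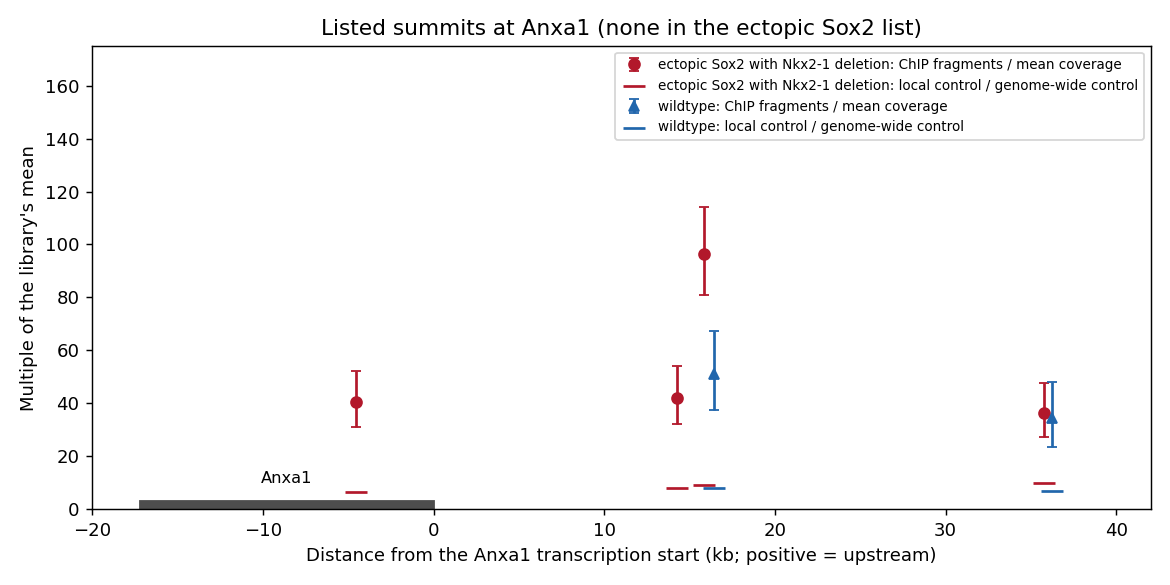
The horizontal axis is the distance from the Anxa1 start in kb, upstream positive; points are ChIP fragments as a multiple of mean coverage with exact Poisson 95% intervals, and dashes are the local control background as a multiple of the genome-wide control, with the libraries drawn slightly apart. The region 16.1 kb upstream reaches 96.4 times mean coverage with Nkx2-1 deletion and 50.9 times in wildtype, while the region at 36.0 kb reads 36.5 times with Nkx2-1 deletion and 34.3 times in wildtype.

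The local control background at the listed Anxa1 summits was above the median of its list in both libraries. With Nkx2-1 deletion the local control was 6.51 times the genome-wide control at the intragenic summit and 8.13, 9.11 and 9.76 times at those 14.5, 16.1 and 36.0 kb upstream, against a median of 3.25 over that list. At the 2 wildtype summits it was 7.85 and 7.01 times, against a median of 2.80. Before this division the local control was 4.0 to 6.0 with Nkx2-1 deletion and 5.0 to 5.6 in wildtype, low values given without intervals. After this control was subtracted, the ratio with Nkx2-1 deletion over wildtype was 2.03 at 16.1 kb and 0.981 at 36.0 kb. The part of the control level in these results was not tested further.

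Chromosome 19 differed between the lists. It carried 140 summits with Nkx2-1 deletion, 1 with ectopic Sox2 alone and 15 in wildtype. Per 100 protein-coding genes that is 19.9 with Nkx2-1 deletion, where the other autosomes had 12.1. With ectopic Sox2 it is 0.142, where they had 1.14, and in wildtype 2.13, where they had 2.68. A summit within 50 kb was found for 23.0% of chromosome 19 genes with Nkx2-1 deletion, 0.142% with ectopic Sox2 alone and 2.84% in wildtype, which is the closer background for Anxa1. The median control background at chromosome 19 summits was 4.88 times the genome-wide control with Nkx2-1 deletion and 4.20 times in wildtype, below the values at every Anxa1 summit of the same library. With ectopic Sox2 the nearest summit to Anxa1 lay 8440 kb away.

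**Figure D3:**
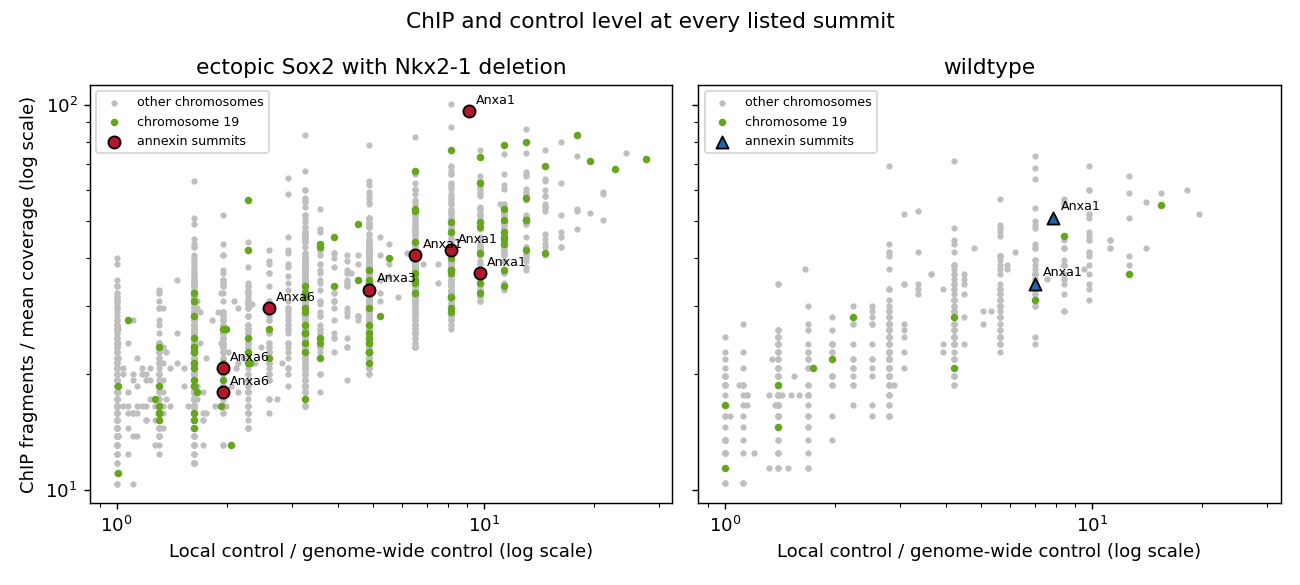
Each point is a listed summit, with ectopic Sox2 and Nkx2-1 deletion on the left and wildtype on the right; the horizontal axis is local over genome-wide control and the vertical axis is ChIP fragments over mean coverage, both on log scales. The Anxa1 summits lie at control levels of 6.51 to 9.76 with Nkx2-1 deletion and 7.01 to 7.85 in wildtype, whereas the Anxa6 summits lie at 1.95 to 2.6.

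Anxa6 (gene ID 11749), whose protein carries a duplicated annexin core and acts in cholesterol and endosome traffic, spans 54978953 to 55033471 on chromosome 11. With Nkx2-1 deletion it had 3 summits, and the ectopic Sox2 and wildtype lists had none: their nearest summits lay 12400 kb away with ectopic Sox2 and 2690 kb away in wildtype. The summit inside the span, at 55009904 to 55010205, held 43 fragments (31.1 to 57.9), with a fold of 7.39, the second largest of the 8, and a −log10 q of 9.28. The other two, at 54958590 to 54958847 and 54953970 to 54954183, lay 20.2 and 24.9 kb from Anxa6 with 30 (20.2 to 42.8) and 26 (17.0 to 38.1) fragments. Both fell inside the span of the neighbouring gene Tnip1, an inhibitor of NF-kappaB signalling, so by nearest gene they belong to Tnip1. Gpx3 also lay within 50 kb of both, and Ccdc69 and Tnip1 lay within 50 kb of the summit inside Anxa6. The local control at the 3 summits was 1.95 to 2.6 times the genome-wide control, below the median of the list.

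Anxa3 (gene ID 11745), a phospholipase-inhibiting annexin, spans 96793385 to 96845968 on chromosome 5. It had 1 summit with Nkx2-1 deletion, inside the span at 96804367 to 96804604, with 48 fragments (35.4 to 63.6), a fold of 5.33 and a −log10 q of 6.70. The summit also lay within 50 kb of Fras1, a basement membrane protein gene. The local control was 4.88 times the genome-wide control. The nearest ectopic Sox2 and wildtype summits both lay 524 kb from Anxa3.

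Set beside their own list, the 8 annexin summits with Nkx2-1 deletion lay close to the middle in fold and −log10 q. Their median fold was 5.39 against 5.73 for all 2589 summits, and their median −log10 q was 6.50 against 5.97. Their median number of fragments was 50.5 against 38, together with a median local control of 5.70 times the genome-wide level against 3.25. The 2 wildtype summits had folds of 5.65 and 4.24, against a list median of 5.80.

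No member summit lay between 36.0 kb and the 50 kb limit, and the nearest outside it were at 103 kb from Anxa9 and 107 kb from Anxa7, both with Nkx2-1 deletion. Anxa9 encodes an atypical annexin with degenerate calcium-binding repeats, and Anxa7 encodes synexin, a membrane fusion protein. For Anxa4, an annexin of secretory epithelia, the nearest summit with Nkx2-1 deletion was 412 kb away. For Anxa5, which binds phosphatidylserine exposed on dying cells, it was 467 kb away, and for Anxa2, which pairs with S100a10 at the plasma membrane and promotes plasmin formation, 545 kb. Anxa11, which tethers RNA granules to lysosomes, had the longest distance of these 6 genes with Nkx2-1 deletion. In the ectopic Sox2 list the nearest summits to these 6 genes were 378 kb (Anxa9) to 3180 kb (Anxa2) away, and in wildtype 545 kb (Anxa2) to 1820 kb (Anxa4).

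The 3 other annexin genes lacked a summit within 50 kb in the Nkx2-1 deletion and ectopic Sox2 lists. In wildtype, a summit at chromosome 14, 34140106 to 34140309, with 19 fragments (11.4 to 29.7) lay 39.7 kb from Anxa8, a gene for an anticoagulant annexin, and was nearer to Npy4r. Anxa10, an annexin of gastric epithelium, had a summit 66.9 kb away with Nkx2-1 deletion, inside Ddx60. Anxa13, an annexin of intestinal epithelium, was the only family member with a region in all 3 lists within 100 kb, at 91.2 kb and nearest to Fam91a1. That region, 58480275 to 58480610 on chromosome 15 with Nkx2-1 deletion, held 49 fragments (36.3 to 64.8) with Nkx2-1 deletion, 32 (21.9 to 45.2) with ectopic Sox2 alone and 41 (29.4 to 55.6) in wildtype. The depth-scaled ratio was 0.806 (0.506 to 1.30) for Nkx2-1 deletion over ectopic Sox2 and 0.793 (0.513 to 1.23) for Nkx2-1 deletion over wildtype. Neither interval excludes 1. The median of shared regions was 1.27 over ectopic Sox2, inside its interval, and 1.33 over wildtype, above its interval.

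The absence of annexin summits from the ectopic Sox2 list was set against its lower depth. Scaled to that depth, the 8 summits with Nkx2-1 deletion would hold 13.7 to 73.7 fragments, where the ectopic Sox2 list reaches down to 10. Their −log10 p was recomputed with the scale and genome-wide control of the ectopic Sox2 library. The local control multiple of each summit with Nkx2-1 deletion was carried over, as none was known for ectopic Sox2 there. The −log10 p would then be 5.56 to 30.9. All 8 would lie above the lowest −log10 p listed there, 5.47, as would 88.6% of all summits with Nkx2-1 deletion, though a value above that level need not have been listed. Every summit scaled here was taken because it was listed with Nkx2-1 deletion, a choice that tends to raise its scaled value. At regions listed in both libraries, fragments with Nkx2-1 deletion were a median 1.27 times those with ectopic Sox2 after depth scaling. That factor rests only on the 119 summits that overlapped an ectopic Sox2 region. It cannot show which other summits should have been listed. With this factor divided out too, 5 of 8 annexin summits stayed above the lowest value, against 54.5% of all, and those below were the Anxa1 summit at 36.0 kb and both summits in Tnip1. The leading Anxa1 summit remained at a −log10 p of 22.0. On chromosome 19, where Anxa1 lies, the ectopic Sox2 list held 0.142 summits per 100 genes, against 1.14 on the other autosomes. This scarcity was not divided out, so the scaled values do not show that an Anxa1 summit should have been listed there. Of all summits with Nkx2-1 deletion, 4.60% overlapped an ectopic Sox2 region, so a summit with no counterpart there was the rule. Scaled to the wildtype depth, all 8 lay above the lowest wildtype value of 5.27, as did 99.5% of all summits. The scale and genome-wide control of that library were again used, with the local control multiple carried over. The −log10 p therefore does not reflect depth alone. At the leading Anxa1 summit it rose from 39.4 as listed to 44.9, although the depth was lower. Of the 8, 2 overlapped a region listed in wildtype, against 10.5% of all summits with Nkx2-1 deletion.

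**Figure D4:**
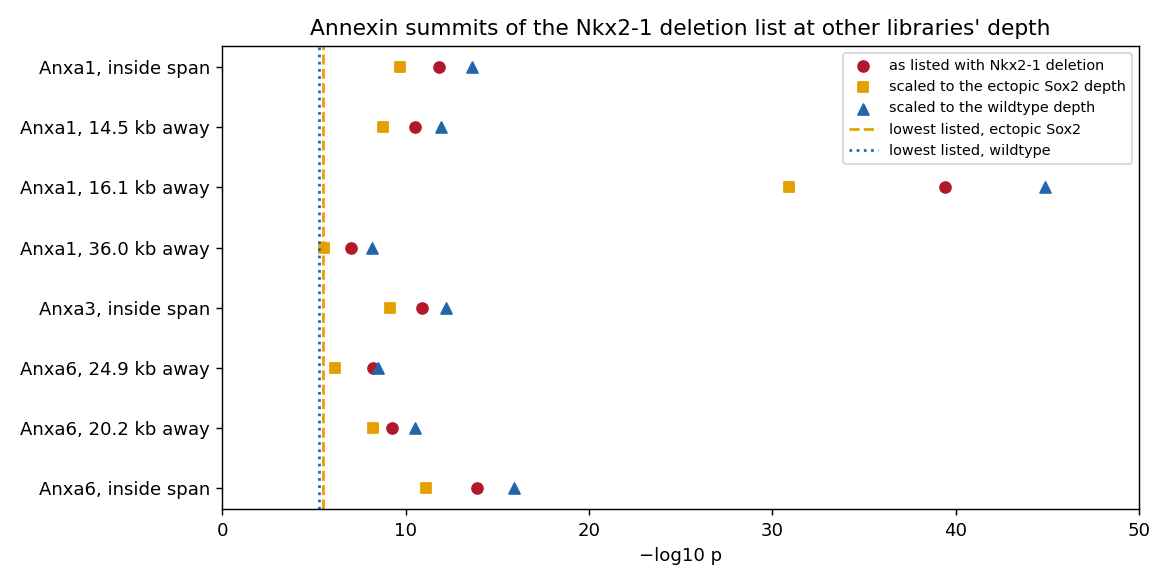
Each row is an annexin summit of the Nkx2-1 deletion list and the horizontal axis is −log10 p: as listed, scaled to the ectopic Sox2 depth and scaled to the wildtype depth, with vertical lines at the lowest value that the ectopic Sox2 and the wildtype list hold. Scaled values use the scale and genome-wide control of the other library as well as its depth. They keep the local control multiple found with Nkx2-1 deletion. The Anxa1 summit at 36.0 kb comes closest to the ectopic Sox2 line, 5.56 against 5.47.

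The count with Nkx2-1 deletion was the same under other gene windows, by nearest gene and with stronger summits alone, while the share of all genes moved. Anxa1, Anxa3 and Anxa6 each had a summit inside the span, so a change of window could not lower that count. Within 10 kb, 3 of 9 members had a summit with Nkx2-1 deletion (6.46% of all genes), 0 with ectopic Sox2 alone (0.735%) and 0 in wildtype (1.37%). Within 100 kb there were 3 with Nkx2-1 deletion (20.7%), 0 with ectopic Sox2 alone (2.45%) and 1 in wildtype (4.66%). By nearest gene there were 3 with Nkx2-1 deletion (8.47%), 0 with ectopic Sox2 alone (1.0%) and 1 in wildtype (2.17%). Keeping summits with a −log10 q of 5 or more, there were 3 with Nkx2-1 deletion (8.83%), 0 with ectopic Sox2 alone (1.18%) and 1 in wildtype (1.87%). Among the 6498 genes whose span was within the members' range of 17238 to 56795 bp, 13.8% had a summit with Nkx2-1 deletion, 1.43% with ectopic Sox2 alone and 2.62% in wildtype.

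Genes that act with annexins were covered by 6 lists of 34 genes. A summit lay within 50 kb of 6 of the 34 with Nkx2-1 deletion (13.1% of all genes), 0 with ectopic Sox2 alone (1.53%) and 2 in wildtype (2.85%). The counts are small and were not tested against these shares, and the 2 genes in wildtype were counted from 1 region. Of the 6 S100 genes, whose small proteins dimerise and join annexins, S100a6 and S100a4 had a summit with Nkx2-1 deletion and in wildtype. S100a10, S100a11, S100a1 and S100b had none. With Nkx2-1 deletion, S100a6 and S100a4 shared 1 region at chromosome 3, 90629308 to 90629620, with 76 fragments (59.9 to 95.1), 15.1 kb from S100a6. In wildtype they shared another region, 90638949 to 90639148, with 21 fragments (13.0 to 32.1), 24.6 kb from S100a6 and nearest to S100a7a. None of the 5 formyl peptide receptor genes, through which annexin A1 signals, and none of the 5 plasminogen system genes had a summit in any library.

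Among the 6 intracellular partners, Ahnak, a scaffold that binds the Anxa2 and S100a10 complex, had 6 summits with Nkx2-1 deletion, and Pdcd6, a calcium sensor that binds Anxa7 and Anxa11, had 1, with 44 fragments (32.0 to 59.1) at 30.5 kb and nearest to Sdha. Of the 7 ferlin and membrane repair genes, Myof, which encodes myoferlin, had 5 summits with Nkx2-1 deletion, the highest by −log10 q with 78 fragments (61.7 to 97.3) inside the gene. Ahnak and Myof both lie on chromosome 19, and the local control at their leading summits was 9.76 and 6.51 times the genome-wide level. Of the 5 genes of the glucocorticoid axis, Nr3c1, the glucocorticoid receptor gene, had 1 summit with Nkx2-1 deletion, with 24 fragments (15.4 to 35.7). The local control there read as the genome-wide level, the lowest value that the recovery allows, so it may be lower.

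The regions most like the leading Anxa1 region were sought among the 211 summits listed with Nkx2-1 deletion and in wildtype but not with ectopic Sox2, by Euclidean distance between depth-scaled fragments on the log2 scale over the 2 libraries. The closest was inside Rb1, with 109 fragments with Nkx2-1 deletion and 49 in wildtype (distance 0.36). Next came regions 35.4 kb from Jak2, with 104 fragments with Nkx2-1 deletion and 53 in wildtype (0.44), and 59.2 kb from Atp6v1g3, with 97 fragments with Nkx2-1 deletion and 58 in wildtype (0.58). In the Nkx2-1 deletion list the Anxa1 region ranked 2 of 2589 by fragments, so few summits could exceed it, and none of these regions did. In wildtype it had 49 fragments, no more than any of them.

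Marker genes of cell types were counted in the same way, as positions and not as levels. With Nkx2-1 deletion a summit lay near 2 of 10 lung epithelial genes, 1 of 6 immune, 1 of 5 endothelial and 1 of 6 mesenchymal genes, where all protein-coding genes had 13.1%. With ectopic Sox2 no gene of these lists had one, against 1.53% of all genes, and in wildtype 1 lung epithelial and 1 endothelial gene had one, against 2.85% of all genes. Whether other cells were present in the preparations was not tested.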

How the data were processed

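Sox2 ChIP-seq was measured in 3 libraries, 1 per condition. Bowtie2 2.2.9, SAMtools 1.4, MACS2 2.1.1, HOMER 4.8.3 and the build mm10 are named in the submitters' processing notes. Neither the control (input or IgG) nor the peak threshold is stated there. Peaks were deposited per library, not pooled. For each summit the authors deposited a score, the fold (a ratio of ChIP to local control), −log10 p and −log10 q. These deposited values describe, order and select summits within their own list, and the lowest −log10 p of a list was the level against which summits scaled to its depth were set. Positions are printed counting from 1.

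MACS2 writes the fold with a pseudocount of 1 and p as a Poisson tail, so ChIP fragments and control background were solved from both. Whole fragments, within a tolerance of 0.005, were found for 100% of summits in each list, and every annexin summit had a single solution. On simulated lists all fragments were recovered. Depth is the genome-wide background divided by the recovered scale. Overlap needed 1 bp. Gene spans came from RefSeq GRCm38.p6. Ratios have exact conditional binomial intervals without subtraction of the control unless stated. Calculations used Python 3.11.15 with SciPy 1.17.1.

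All 9 members, the rest of the family and every partner gene with a summit were named. The members and lists were chosen with earlier results of these data known, and the scaling of summits to other depths was added after the lists were seen. IgG and input libraries were not used here.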

Additional observations from a re-analysis of the deposited data

How the results depend on the processing

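With Nkx2-1 deletion 3 members had a summit under each gene window, by nearest gene, with −log10 q of at least 5 and with 1 summit per region, and 2 without chromosome 19. Each of the 3 had a summit inside its span, so no gene window could lower that count. With ectopic Sox2 the count was 0 under all of these settings. In wildtype the count of 1 member and 2 summits became 0 members and 0 summits within 10 kb and without chromosome 19. The 8 summits with Nkx2-1 deletion became 3 within 10 kb, 4 without chromosome 19, and 6 by nearest gene or with −log10 q of at least 5. Regions at Anxa1 listed in 2 libraries numbered 2 at 1 bp of overlap and 1 at 50% of both regions, where the leading region was lost because its wildtype counterpart covered 49.4% of it. Without division by depth its ratio was 2.86 and that of the region at 36.0 kb 1.61; with control subtracted the region at 36.0 kb read 0.981, within its interval. Dividing out the median ratio of shared regions, a setting chosen after seeing the data, left 5 of 8 summits above the lowest ectopic Sox2 value (54.5% of all summits) and 7 of 8 above the lowest wildtype value (80.0% of all). The share of all genes with a summit was 6.46% within 10 kb and 20.7% within 100 kb with Nkx2-1 deletion, 0.735% and 2.45% with ectopic Sox2, and 1.37% and 4.66% in wildtype. No paired analysis was possible because each condition has 1 library. The summits with the fewest fragments held 15 with Nkx2-1 deletion, 10 with ectopic Sox2 alone and 10 in wildtype.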
